A study of Rosa rugosa with 4 samples.

Results

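Phenylpropanoid, lignin and flavonoid enzymes were followed in leaf and petal tissue of the rose species Rosa rugosa, a fragrant garden and oil crop. They were taken from a table of 65535 assembled transcripts (contigs), each with a value in FPKM, fragments per kilobase of contig, scaled to the mapped fragments of the library, in 4 libraries. A contig was a member when its first database hit named Fragaria, Rosa, Prunus, Malus or Pyrus, the 5 genera of the rose family used here, and the hit text held 1 of 17 enzyme words such as phenylalanine ammonia, cinnamoyl, laccase or chalcone, with no glucosyltransferase. This rule found 108 contigs among the 14513 with a first hit to those genera. It used the text of the annotation and no expression value.

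The phenylpropanoid pathway starts from phenylalanine, which phenylalanine ammonia-lyase turns into cinnamate. Cinnamate 4-hydroxylase and 4-coumarate-CoA ligase then make coumaroyl-CoA, from which a set of transferases and reductases leads to the monolignols that laccases and peroxidases couple into lignin, while chalcone synthase opens the branch to flavonols, anthocyanins and condensed tannins. Lignin stiffens vessels and fibres in leaves as in stems, and in rose petals the flavonoid branch is best known for colour.

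Leaf and petal libraries, 2 of each, came from untreated greenhouse plants, with total RNA sequenced after removal of ribosomal RNA. The only labelled difference was the tissue. No source used here says whether different plants gave the 2 libraries of a tissue, so p-values measure only the spread between these libraries, which may be technical. The values are bulk measurements, so fewer cells of a type and less RNA per cell cannot be told apart.

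The mapped depth, recovered from the spacing of low FPKM values, was 18600000 to 26700000 mapped fragments a library, of which the contigs of the table took 0.799% to 2.93%. The table is part of a larger assembly, and the other contigs were not analysed here. Leaf mesophyll markers took 852 to 1125 fragments per 1000000 mapped (FPM) in the leaf libraries and 17.4 to 37.5 in the petal libraries. Of the 5 with at least 20 fragments 3 were without overlap higher in leaf. They were a thylakoid lumenal protein (11662 fragments), TR19762|c2_g1_i1 (12066) and TR19762|c2_g2_i1 (24383). The last pair share an assembly component and a first hit, a glycine cleavage system H protein. Another, the chlorophyll a-b binding TR146068|c0_g1_i1, was higher in petal, and TR115506|c0_g1_i1 of the same type overlapped. NUDX1, a petal scent enzyme of roses, took at most 0.412 in leaf and 20.7 to 203 in petal. A list of 9 contigs was matched by xylem and secondary wall words, 6 of them at 0. It had 0.412, 0, 1.83 and 0.296 FPM in leaf 1, leaf 2, petal 1 and petal 2. Its 2 contigs with at least 20 fragments were fasciclin-like arabinogalactan proteins 19 and 14, and whether these mark xylem was not tested. Petal 2 stood apart, with 8168 FPM on contigs with hits to grey mould against at most 6.67 in the other libraries, and 655 on chelicerate hits against at most 0.269. Aphid hits took 776 to 1007 FPM in the petal libraries and at most 29.5 in leaf, and Marssonina, a leaf spot fungus, took 190 to 351 in leaf and 1.5 to 47.6 in petal. Their part in the results was not tested.

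Few of the enzyme contigs held many fragments. Of the 108, 51 (47.2%) were listed at 0 in all 4 libraries, against 45.8% of all contigs with a hit to the 5 genera. Another 43 held 1 to 19 fragments over the 4 libraries, and 14 (13.0%) held at least 20, against 7.99% of that background. Contig length went with this: 32 of the 37 members of at most 250 nt were listed at 0, and 3 of the 24 members longer than 350 nt. The lengths ran from 178 to 1892 nt with a median of 288 nt, so most contigs are pieces of an enzyme's transcript. The 108 contigs shared 63 first hits, 92 of them matched Fragaria and 11 matched Rosa, and several can be pieces or copies of 1 gene. Many hits were named -like, probable or putative, and whether those contigs carry out the named step was not tested.

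**Figure D1:**
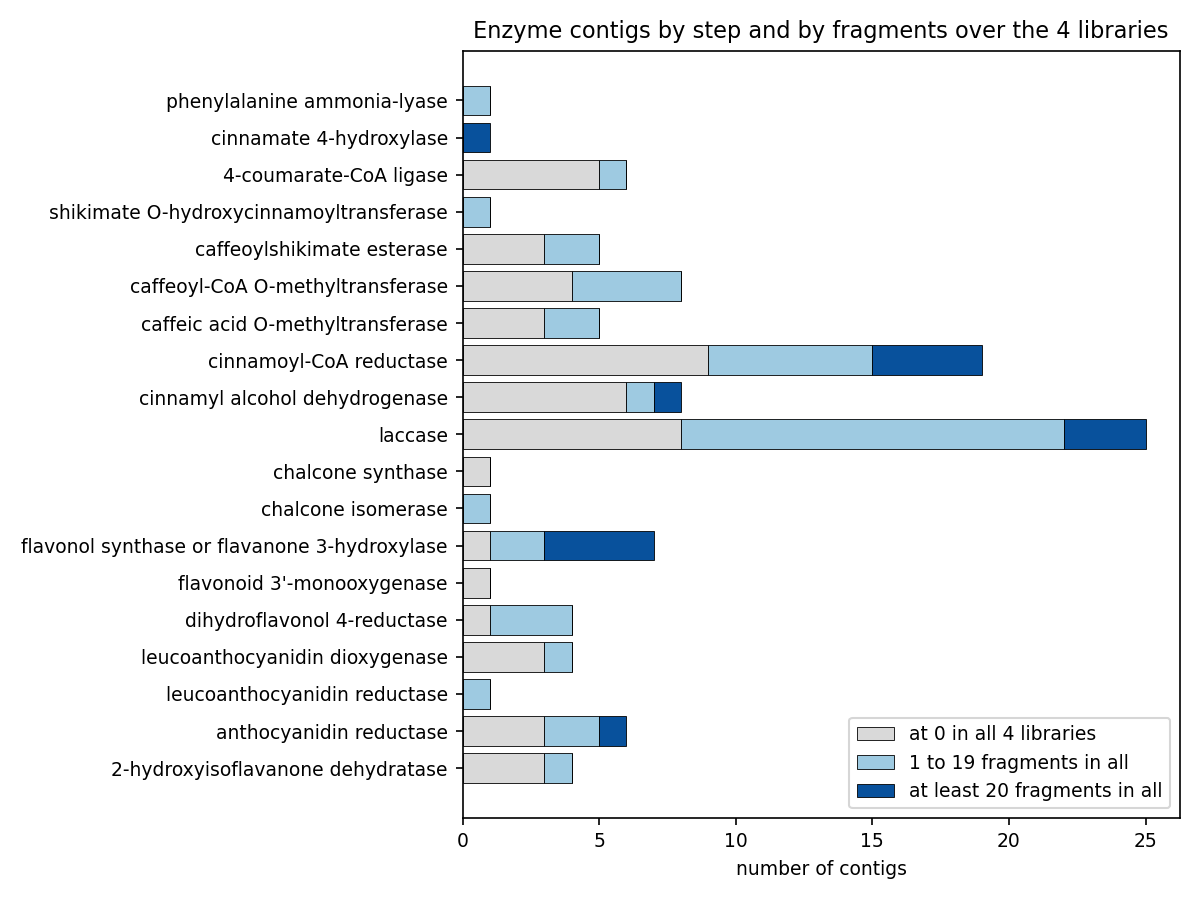
Number of enzyme contigs (x axis) at each step of the pathway (y axis), split by the fragments they held over the 4 libraries. Laccase with 25 contigs and cinnamoyl-CoA reductase with 19 had the most, and 14 contigs in all held at least 20 fragments.

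One contig carried nearly all the signal of the pathway in this table. Cinnamate 4-hydroxylase, the cytochrome P450 that adds the first ring hydroxyl, was represented by the contig TR13804|c0_g1_i1 of 1892 nt, whose first hit was the cinnamate 4-hydroxylase mRNA of Rosa rugosa itself with an E-value listed as 0. It stood at 571 and 739 FPKM in leaf 1 and leaf 2 and at 224 and 224 FPKM in petal 1 and petal 2. The tissues did not overlap, and the petal libraries were level (ratio 1.0) while the leaf libraries differed 1.3-fold. With 62742 fragments it held 98.4% of all fragments on the 108 contigs. Among the 14513 contigs with hits to the 5 genera it ranked 6 and 2 in the leaf libraries and 20 and 21 in the petal libraries.

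The mean FPKM of cinnamate 4-hydroxylase was 2.92-fold higher in leaf, 655 ± 119 (SD, n = 2) against 224.3 ± 0.205 (SD, n = 2), and leaving out 1 library at a time gave 2.55-fold to 3.30-fold. Scaled to an equal sum over contigs with hits to the 5 genera the ratio was 3.33, and scaled to an equal sum over the whole table it was 4.06. On the log2(FPKM + 1) scale the difference, petal minus leaf, was -1.53 (SE 0.51). In limma, a linear model fitted across the 2157 contigs whose mean and SD both reached 10 FPKM, it did not pass the test, with a p of 0.0026 and an adjusted p of 0.165 (Benjamini-Hochberg). That fit pooled the spread over contigs of like level and gave a contig's own replicates no weight. The exact permutation test of the 4 FPKM values gave a two-sided p of 0.333, the smallest that 2 libraries against 2 allow.

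The call depended on the setting and the direction did not, though most settings could not have reversed it. Filters, priors and a replicate block leave the difference of the 4 values unchanged. Other pseudocounts or leaving out 1 library cannot reverse tissues that do not overlap. The other scalings and limma-voom could have. Across 18 alternative settings the log2 difference of cinnamate 4-hydroxylase lay between -2.15 and -1.34, lower in petal in all 18, and the adjusted p ranged from 1.54e-39 with a robust variance prior to 0.657 with a prior that ignores the level. Relative to the median of all contigs tested, which was 2.21 as reported, it was lower in petal too, except with an equal sum per library, where the median was -2.72 and cinnamate 4-hydroxylase -2.15. It passed the threshold of 0.05 in 7 of the 18. They included limma on contigs averaging 1 FPKM or more (adjusted p = 0.0221, 0.0476% of 18894 contigs called) and the reported filter with at least 20 fragments added (0.0455, 6.43% of 373 called). Also passing were contigs with hits to the 5 genera only (0.0412, 4.11% of 487 called), the robust prior (1.3% called) and limma-voom on the recovered fragments (5.86e-26, 5.33% called). The last were limma without leaf 1 or without leaf 2, with log2 differences of -1.72 and -1.34. With 1 leaf library left, nearly all contigs called were higher in leaf. With 1 petal library left, nearly all were higher in petal, and cinnamate 4-hydroxylase did not pass. It did not pass in any of the 3 alternatives chosen after seeing the data, which asked for at least 20 fragments: limma on hits to the 5 genera (0.213), and limma-voom on all contigs (0.586) or on those hits (0.27).

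**Figure D2:**
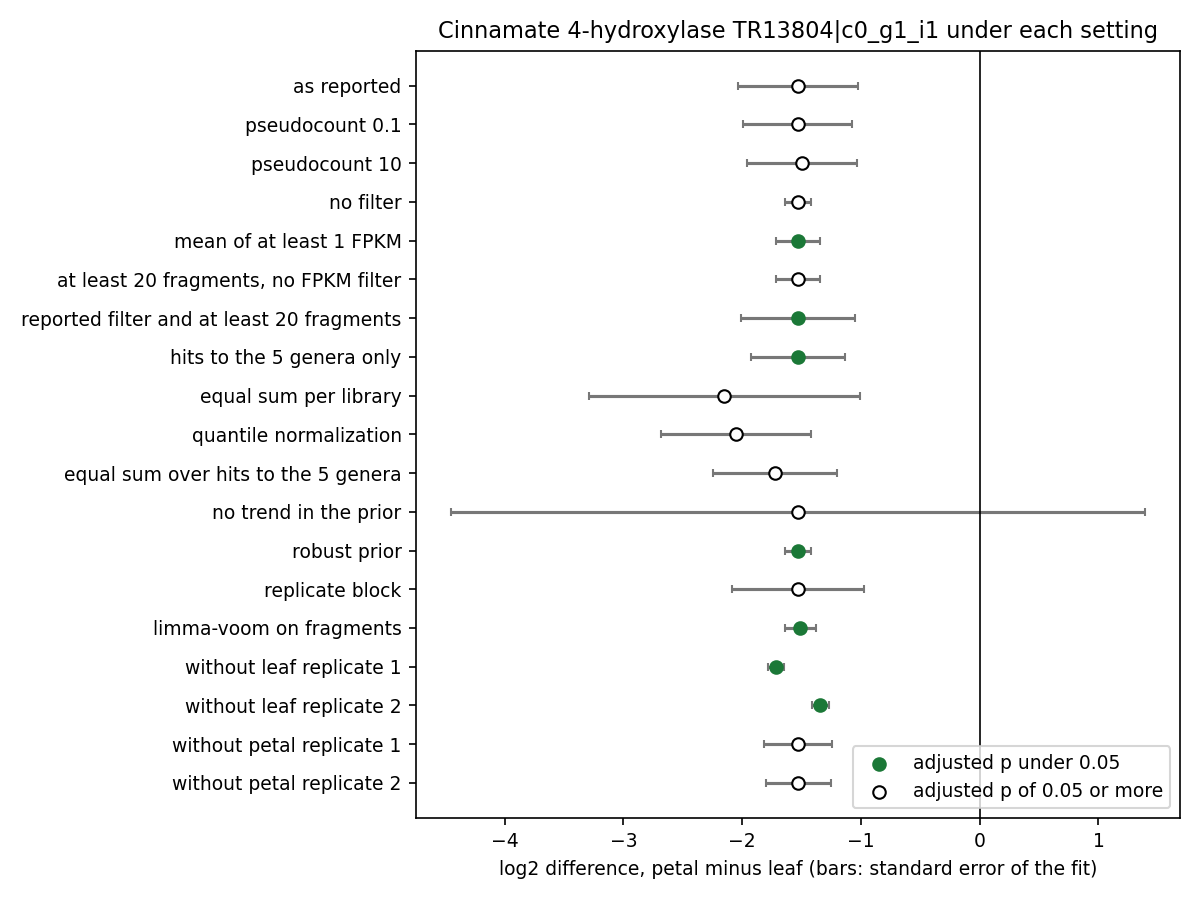
Log2 difference of cinnamate 4-hydroxylase, petal minus leaf (x axis, points), with the standard error of the fit (bars), as reported and under 18 alternative settings (y axis), with filled points where the adjusted p was under 0.05. All points lie below 0, between -2.15 and -1.34, and 7 are filled.

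Over all 2157 contigs limma called 24 (1.11%), 14 higher in petal and 10 (0.464%) higher in leaf. The other enzyme contigs in that fit were the cinnamoyl-CoA reductase TR140222|c0_g2_i1 with an adjusted p of 0.614, the flavonol synthase TR10968|c0_g1_i1 with 0.649 and the laccase TR121704|c0_g1_i1 with 0.515. So limma called 0 of the 4 enzyme contigs tested, 1 of them, cinnamate 4-hydroxylase, had an unadjusted p under 0.05, and limma-voom called that same 1. With at least 20 fragments in place of the FPKM filter, limma called 0 of 5212 contigs (307 at an unadjusted p under 0.05, 2 of them among the 14 enzyme contigs), and limma-voom also called 0 (175 and 1).

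Among the 14 enzyme contigs with at least 20 fragments, 4 (28.6%) were higher in both leaf libraries than in both petal libraries, against 22.6% of the 1160 contigs with hits to the 5 genera and as many fragments. None, 0 of 14, was higher in both petal libraries, against 27.2% of that background. The 4 were cinnamate 4-hydroxylase, a cinnamyl alcohol dehydrogenase, a cinnamoyl-CoA reductase and a flavonol synthase type contig, each described below with its own step. Counts this small move with the libraries used, as do those of the background. Without petal 2 the numbers were 7 higher in leaf and 3 in petal (background 30.1% and 43.1%), and without petal 1 they were 5 and 3 (31.3% and 39.3%). Without leaf 2 they were 6 and 2 (34.7% and 33.7%), and without leaf 1 they were 6 and 0 (32.7% and 33.4%). With a minimum of 10 fragments, 5 of 22 (22.7%) were higher in leaf and 4 of 22 (18.2%) in petal, near the 21.3% and 23.5% of 2132 background contigs. The median log2 difference of the 14 was -0.40, beside 0.10 over the 1160.

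**Figure D3:**
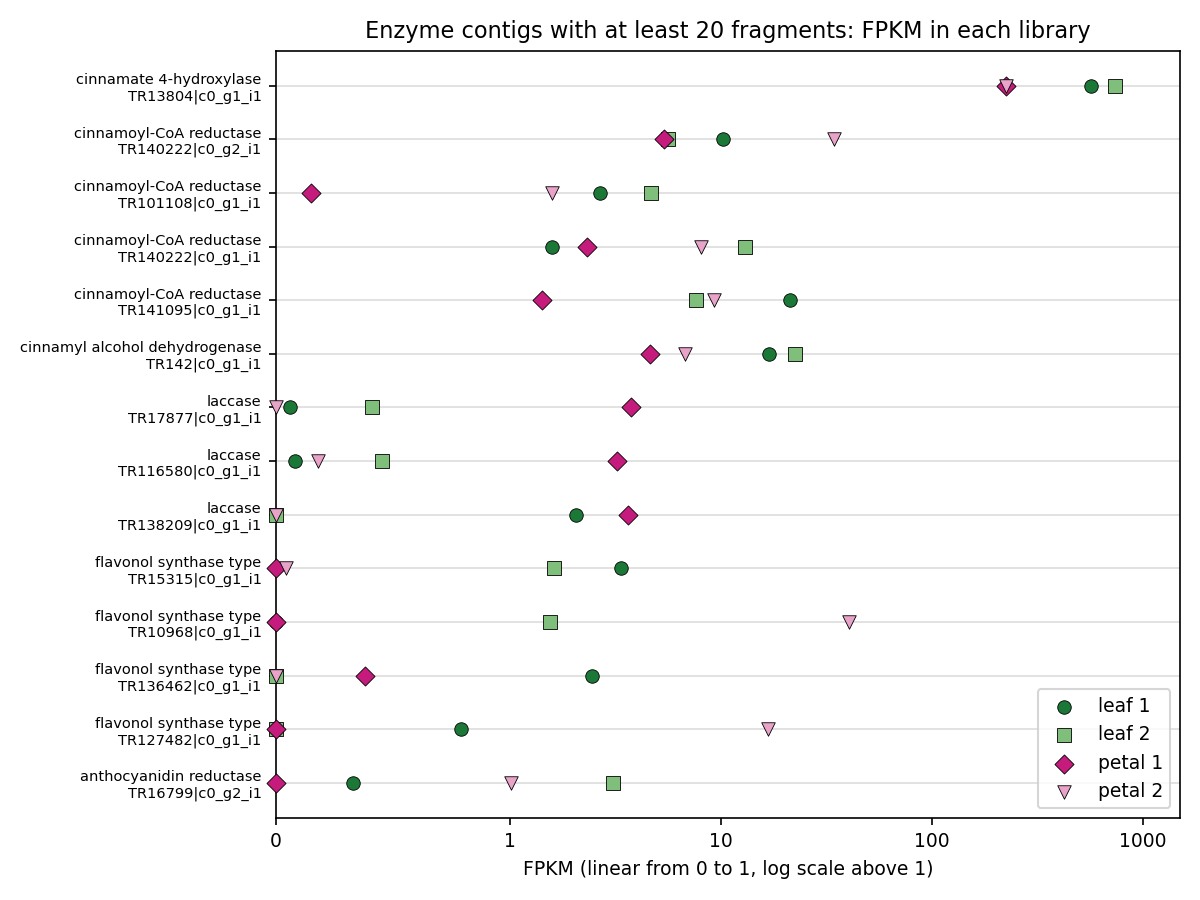
FPKM (x axis, linear from 0 to 1 and on a log scale above 1) of the 14 enzyme contigs with at least 20 fragments (y axis), with 1 point for each of the 4 libraries. Cinnamate 4-hydroxylase lies between 224 and 739 FPKM, all others are at or below 40.3 FPKM, and in 4 contigs both leaf points lie above both petal points.

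Contigs annotated to the enzymes on either side of cinnamate 4-hydroxylase were almost without fragments here. Phenylalanine ammonia-lyase, the entry enzyme, had 1 contig of 334 nt, TR116007|c0_g1_i1, with a hit to the PAL1 mRNA of Rosa rugosa, and it held 1 fragment, in petal 1 (1.0 FPKM there and 0 in the other libraries). For 4-coumarate-CoA ligase, which activates coumarate as its CoA ester, all 6 contigs had hits named ligase-like, and 5 of them were listed at 0. Whether these ligase-like types carry out that step was not tested. The remaining one, TR17292|c0_g1_i1, of the ligase-like 7 type, stood at 0 in both leaf libraries and at 11.2 and 9.57 FPKM in petal 1 and petal 2. Those values come from 4 fragments on a contig of 253 nt, with an E-value of 1e-06. Contigs of these enzymes elsewhere in the assembly were not analysed here, so the low counts describe this table only.

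The middle steps of the lignin branch, which build the methoxylated side of the monolignols, held few fragments in this table, at most 15 in any of the 4 steps. Shikimate O-hydroxycinnamoyltransferase (TR111872|c0_g1_i1), which loads coumaroyl units onto shikimate, was at 10.3 and 6.74 FPKM in leaf against 0 FPKM in petal, on 6 fragments. Against the floor of 3 fragments over both petal libraries it was at least 2.56-fold higher in leaf. A caffeic acid O-methyltransferase (TR130682|c0_g1_i1, hit to Prunus), which methylates the aromatic ring, stood at 1.33 and 8.96 FPKM in leaf against 0 in petal. It held 12 fragments, 10 of them in leaf 2. Against the same floor it was 4.84-fold higher in leaf, and its exact interval began at 3.36. For both enzymes the leaf libraries lay above the petal libraries, at counts that are close to the floor.

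Caffeoylshikimate esterase, which frees caffeate from its shikimate ester, had 5 contigs, and the highest, TR11117|c0_g1_i1, was listed at 36.5 FPKM in leaf 2 and at 0 elsewhere. On its 244 nt that value is 4 fragments. Caffeoyl-CoA O-methyltransferase, which methylates caffeoyl-CoA on the way to guaiacyl lignin, had 8 contigs with 13 fragments in all. All 8 hits were named probable caffeoyl-CoA O-methyltransferase At4g26220, and whether this type carries out that step was not tested. The methyltransferase contigs TR103333|c0_g1_i1 (2.06 FPKM, 6 fragments) and TR12052|c0_g1_i1 (2.78 FPKM, 2 fragments) were above 0 in petal 2 only. Each of these contigs rests on 1 library.

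Cinnamoyl-CoA reductase, the first enzyme committed to monolignols, had 19 contigs, 9 of them at 0 and 4 with at least 20 fragments. Its contigs differed in the order of the libraries. TR101108|c0_g1_i1 (638 nt, E-value 1e-18) had 2.67 and 4.64 FPKM in leaf against 0.15 and 1.58 FPKM in petal, without overlap. Its mean was 4.23-fold higher in leaf (log2 difference -1.40). TR141095|c0_g1_i1, with a hit to the same strawberry locus, had 21.3 and 7.58 FPKM in leaf against 1.41 and 9.22 FPKM in petal, so its tissues overlapped. By limma across contigs with at least 20 fragments the adjusted p was 0.469 for both.

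The reductase with the most fragments was highest in petal 2. TR140222|c0_g2_i1 (362 nt) stood at 10.2 and 5.57 FPKM in leaf 1 and leaf 2 and at 5.38 and 34.2 FPKM in petal 1 and petal 2. The log2 difference of 0.80 (SE 1.46) turned to -0.43 without petal 2. A second contig of the same component and length, TR140222|c0_g1_i1, was at 1.57, 13.0, 2.30 and 7.99 FPKM in the same order of libraries. The 2 contigs share a first hit and an assembly component, so reads may have been divided between them, and their recovered fragments were not whole numbers (15.6 in leaf 1 for the first and 2.4 for the second). Summed over the component, the values were 11.8, 18.6, 7.68 and 42.1 FPKM, with the tissues still overlapping. A pear-type reductase, TR126234|c0_g1_i1, was at 0 and 2.20 FPKM in leaf against 8.14 and 6.69 FPKM in petal, on 11 fragments, with a ratio of recovered rates of 7.78 (exact 95% interval 1.11 to 338, counting error only).

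Cinnamyl alcohol dehydrogenase, the last reduction before the monolignols leave the cell, was higher in leaf in its one well covered contig. TR142|c0_g1_i1 (429 nt, E-value 2e-34, probable cinnamyl alcohol dehydrogenase 1 of strawberry) stood at 16.9 and 22.3 FPKM in leaf and 4.60 and 6.71 FPKM in petal. The tissues did not overlap, and the mean was 3.47-fold higher in leaf, 19.6 ± 3.85 (SD, n = 2) against 5.66 ± 1.49 (SD, n = 2), on 137 fragments. It failed the SD filter of the reported test, and by limma across contigs with at least 20 fragments the log2 difference of -1.64 (SE 0.68) had an adjusted p of 0.469. The exact interval of the ratio of pooled rates, 3.32, ran from 2.24 to 5.05 and covers counting error only. Of the other 7 contigs of this enzyme 6 were at 0, and the last held 2 fragments in petal 2.

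Laccases, copper oxidases that couple monolignols into lignin, had the most contigs of all steps, 25, of which 17 were above 0. Of the 25, 12 had hits to putative laccase-9 and 5 to laccase-14-like. Whether the types found here act on lignin was not tested. Together the 25 took 0.787, 1.63, 9.56 and 1.39 FPM in leaf 1, leaf 2, petal 1 and petal 2. The Wilson 95% interval of petal 1 (8.25 to 11.1) lay above those of the other libraries, the highest of which ended at 2.29. The petal libraries therefore lay far apart, and petal 2 fell between the leaf libraries. In 8 of the 17 contigs petal 1 was the highest library, against 1 for leaf 1, 5 for leaf 2 and 3 for petal 2. The same count was not made over the background contigs. All contigs with hits to the 5 genera took 6733, 6162, 9536 and 5779 FPM in leaf 1, leaf 2, petal 1 and petal 2. Petal 1 was thus highest there too, and how far this enters the laccase values was not tested. The list from xylem and secondary wall words was also highest in petal 1, at 1.83 FPM against at most 0.412 elsewhere. It was covered mainly by fasciclin-like arabinogalactan proteins. Its part in the laccase values was not tested.

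A laccase-17 type transcript held the most fragments of all laccases. TR17877|c0_g1_i1 (1524 nt, E-value listed as 0) stood at 0.06 and 0.41 FPKM in leaf against 3.74 and 0 FPKM in petal 1 and petal 2, with 86 of its 98 fragments in petal 1. Its twin of the same length, TR17877|c0_g2_i1, had 7 fragments in petal 1 and 3 in petal 2. Without this component the laccases still took 4.57 FPM in petal 1 (3.69 to 5.64) against 0.712 to 1.27 in the other libraries.

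Some other laccases were highest in petal 1 as well. The laccase-14 type TR116580|c0_g1_i1 was at 0.08, 0.45, 3.21 and 0.18 FPKM in leaf 1, leaf 2, petal 1 and petal 2. TR138209|c0_g1_i1 was at 2.05, 0, 3.63 and 0 FPKM, shared between leaf 1 with 14 fragments and petal 1 with 19. TR138805|c0_g1_i1, a putative laccase-9, held 17 fragments, all in petal 1. A pair of further laccase-9 type contigs, chosen after their values were seen, was higher in both petal libraries: TR115106|c0_g1_i1 at 0 and 0.49 FPKM in leaf and 4.25 and 1.35 FPKM in petal, and TR109531|c0_g1_i1 at 0 and 0.23 FPKM in leaf and 1.56 and 1.06 FPKM in petal. They held 15 and 14 fragments, with 1 leaf fragment each, and the ratios of pooled rates were 12.5 (exact 95% interval 1.91 to 530.1) and 12.9 (1.93 to 546). Others went differently. TR103505|c0_g1_i1, with the same first hit as that pair, overlapped between tissues at 0 and 1.21 FPKM in leaf and 0 and 1.09 FPKM in petal (11 fragments). The laccase-9 type TR132951|c0_g1_i1 was above 0 in leaf 2 only, at 8.97 FPKM on 4 fragments, and the laccase-14 type TR16494|c0_g1_i1 was higher in both leaf libraries, at 1.0 and 4.05 FPKM against 0 on 4 fragments.

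The laccase with the highest mean FPKM shows how little a large value can rest on. TR121704|c0_g1_i1 was listed at 50.1 FPKM in leaf 2 and at 0 in the other libraries, which on its 214 nt is 2 fragments. It passed the filter of 10 FPKM all the same, and it was called higher in leaf without leaf 1 (limma, adjusted p = 0.025). In the laccase-15 type component TR15699, of 4 contigs of 296 nt, 2 were each given 0.97 FPKM in petal 1, which is 0.5 of a fragment each, the value of 1 fragment divided between them.

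**Figure D4:**
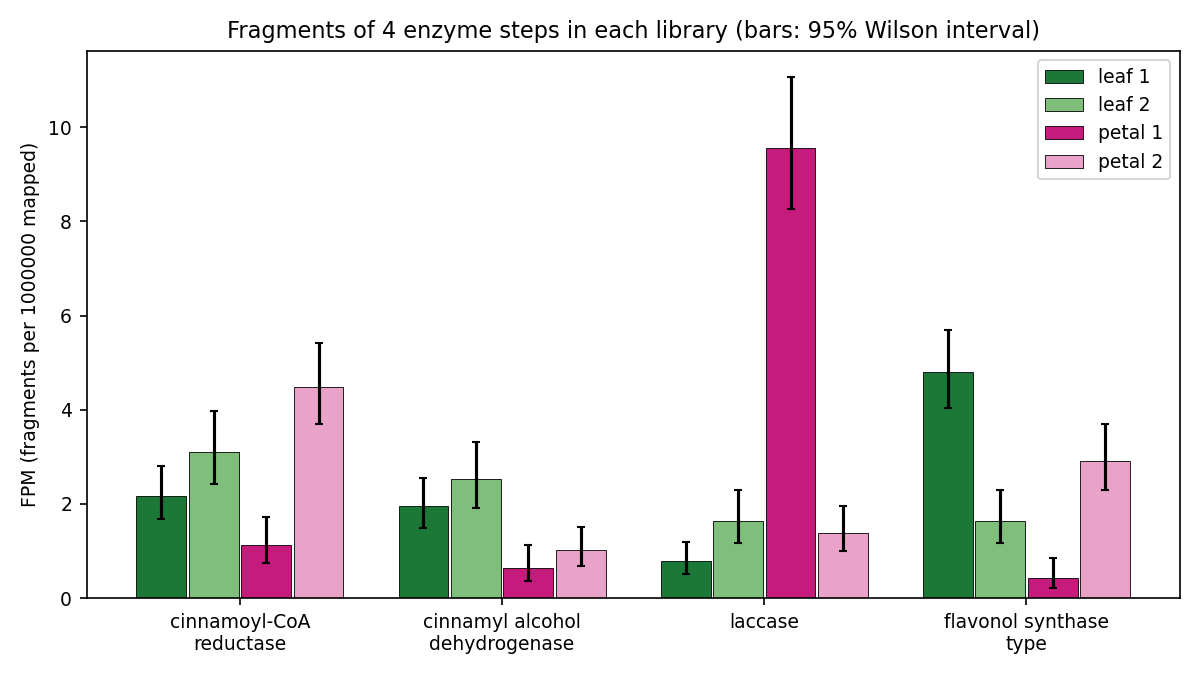
FPM (fragments per 1000000 mapped, y axis) summed over the contigs of 4 enzyme steps (x axis) in each library, with 95% Wilson intervals (bars, counting error only). Petal 1 is highest for laccase at 9.56 and lowest for the other 3 steps, and both leaf libraries exceed both petal libraries only for cinnamyl alcohol dehydrogenase.

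The flavonoid branch took 5.43, 2.57, 0.591 and 3.34 FPM in leaf 1, leaf 2, petal 1 and petal 2, on 25 contigs with 287 fragments. The lignin steps other than laccase took 4.53, 6.67, 1.77 and 5.92, so in both groups petal 1 was lowest and petal 2 lay between the leaf libraries. Without cinnamate 4-hydroxylase the 107 remaining contigs took 10.7, 10.9, 12.1 and 10.9 FPM, with Wilson intervals that overlap.

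The entry to the flavonoids was thinly covered in this table, which is part of a larger assembly. Chalcone synthase, which condenses coumaroyl-CoA with malonyl units, had 1 contig of 221 nt, and flavonoid 3'-monooxygenase, which adds a ring hydroxyl, had 1 of 226 nt, both listed at 0 in all 4 libraries. Chalcone isomerase (TR10348|c0_g1_i1, hit to Rosa rugosa), which closes the flavanone ring, had 17.5 and 0 FPKM in leaf against 3.44 and 2.88 FPKM in petal on 7 fragments, so the tissues overlapped.

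Flavonol synthase and flavanone 3-hydroxylase type contigs, of the dioxygenases that make flavonols and dihydroflavonols, held 238 of the 287 flavonoid fragments. The contig with the most, TR15315|c0_g1_i1 (1302 nt, E-value listed as 0), was at 3.34 and 1.61 FPKM in leaf against 0 and 0.04 FPKM in petal. That is 88 and 32 fragments in the leaf libraries against 0 and 1 in petal. The tissues did not overlap, and the ratio of pooled rates was 111, with an exact 95% interval of 19.6 to 4422 from counting error alone. By limma across contigs with at least 20 fragments its log2 difference of -1.72 (SE 0.59) had an unadjusted p of 0.0408 and an adjusted p of 0.469, on a scale that understates changes of low contigs.

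The other 3 contigs of this type with at least 20 fragments were each high in a single library. TR10968|c0_g1_i1, flavonol synthase 3-like (E-value 5e-19), stood at 0 and 1.54 FPKM in leaf against 0 and 40.3 FPKM in petal 1 and petal 2. Petal 2 held 43 of its 44 fragments. TR127482|c0_g1_i1, also flavonol synthase 3-like, was at 0.79 and 0 FPKM in leaf against 0 and 16.7 FPKM in petal, again with petal 2 high (25 of 26 fragments). TR136462|c0_g1_i1, of the same type as TR15315, had 2.45 and 0 FPKM in leaf against 0.38 and 0 FPKM in petal, with 26 of 29 fragments in leaf 1. The log2 difference of TR10968|c0_g1_i1, 2.01 (SE 4.02), became -0.67 without petal 2, the library that also held the grey mould hits, whose part in it was not tested. TR11954|c0_g1_i1, with the same first hit as TR15315, was split between tissues, with 10 fragments in leaf 1 and 5 in petal 1.

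Several of the better covered enzymes drew their signal from 1 library. In 5 of the 14 contigs with at least 20 fragments (35.7%), over 80% of the summed FPKM lay in 1 library, against 17.7% of the 1160 background contigs. Petal 1 held 2 of these, the laccases TR17877|c0_g1_i1 and TR116580|c0_g1_i1, petal 2 held the flavonol synthases TR10968|c0_g1_i1 and TR127482|c0_g1_i1, and leaf 1 held TR136462|c0_g1_i1. Of all 57 contigs above 0, 22 (38.6%) were above 0 in a single library and 8 (14.04%) in all 4, against 46.8% and 12.9% of the background contigs above 0.

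The contigs of the late flavonoid enzymes in this table were close to the limit of detection. Other contigs of the assembly were not analysed here. Dihydroflavonol 4-reductase, which leads to anthocyanins and tannins, had 4 contigs. Of these, TR145085|c0_g1_i1 stood at 3.97 and 3.22 FPKM in leaf and 0 in petal on 8 fragments. Against the floor of 3 fragments it was 3.29-fold higher in leaf. The exact interval of its ratio of pooled rates, from counting error only, began at 2.11. A second contig of this enzyme, TR141236|c0_g1_i1, was listed at 27.2 FPKM in leaf 2 only, on 2 fragments. Leucoanthocyanidin dioxygenase, which forms the coloured anthocyanidins, had 3 of 4 contigs at 0, and TR129707|c0_g1_i1 held 3 fragments in petal 2 (2.64 FPKM, E-value 2e-06). All 4 hits were named dioxygenase-like, and whether these contigs carry out that step was not tested. Over all contigs of dihydroflavonol 4-reductase the leaf libraries held 5 and 5 fragments and the petal libraries 1 and 0, counts close to the floor.

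For the reductases toward condensed tannins the tissues overlapped in the contigs with the most fragments. Leucoanthocyanidin reductase (TR130097|c0_g1_i1) had 2.89 and 0 FPKM in leaf against 2.82 and 0 FPKM in petal, 1 fragment in each library above 0. Anthocyanidin reductase, which makes epicatechin, had 6 contigs, and TR16799|c0_g2_i1 stood at 0.33 and 3.08 FPKM in leaf and 0 and 1.01 FPKM in petal on 22 fragments, with overlap. TR13812|c0_g2_i1 was at 9.30 FPKM in leaf 1 only, on 3 fragments. The word flavanone also matched 4 contigs of 2-hydroxyisoflavanone dehydratase, named for an isoflavone step of legumes, of which TR118480|c0_g1_i1 held 3 fragments in petal 2 (3.86 FPKM) and 3 were at 0.

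Genes next to these steps were counted from a separate list of 50 contigs with hits to the 5 genera. Of these, 27 were at 0 and 3 held at least 20 fragments. In both petal libraries 0 were higher (the background is 27.2%), and all 3 were higher in both leaf libraries (22.6%). They were the dirigent proteins TR114580|c0_g1_i1 at 27.7 and 8.27 FPKM in leaf and 2.10 and 1.95 FPKM in petal, and TR105433|c0_g1_i1 at 4.32 and 2.59 FPKM against 0.77 and 0 FPKM, and the peroxidase TR117114|c0_g1_i1 at 0.92 and 2.83 FPKM against 0 and 0.08 FPKM. Dirigent proteins steer the coupling of coniferyl alcohol, and class III peroxidases oxidise monolignols beside laccases. The supply of phenylalanine had 22 contigs, 15 at 0 and 0 with at least 20 fragments. The 3-O-glucosyltransferases had 7 contigs, 0 with at least 20 fragments. Their FPKM summed to 12.8 and 22.2 in leaf and 131 and 303 in petal, but they took 0.262, 0.544, 0.269 and 0.465 FPM in leaf 1, leaf 2, petal 1 and petal 2. Words for naringenin dioxygenase, flavonoid 3',5'-hydroxylase, ferulate 5-hydroxylase and cytochrome P450 98A matched 0 contigs.

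The same words also matched 11 contigs whose first hit was outside the 5 genera, which are not members. They included an aphid laccase-1 type contig, TR102234|c0_g1_i1, at 0 FPKM in leaf against 1.18 and 0.93 FPKM in petal on 30 fragments, and a 4-coumarate-CoA ligase of the leaf spot fungus, TR116918|c0_g1_i1, at 1.78 and 0.55 FPKM in leaf and 0 and 0.57 FPKM in petal on 20 fragments. Enzyme words in this table thus also name transcripts of animals and fungi. Among the members, 40 hits had an E-value of at most 1e-50, and 9 of the 14 contigs with at least 20 fragments were among them.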

How the data were processed

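Per the labels, RNA of 2 leaf and 2 petal samples was depleted of ribosomal RNA and sequenced. The authors assembled all reads with Trinity (v2.0.6), annotated contigs by database search (E-value limit 1e-05) and estimated abundance with RSEM after bowtie alignment (versions not given in the sources used here). FPKM were deposited per contig with 2 decimals, for part of the assembly. No genome was used.

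What 1 fragment was worth was fitted per library. Of values of at most 10 fragments on contigs under 500 nt, 98.7% to 98.8% lay within 0.1 of a whole number. Wilson intervals of shares and exact (Clopper-Pearson) intervals of rate ratios, at 95%, cover counting error only. The floor was 3 fragments over the pair of libraries of a tissue.

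FPKM are not counts, so limma (3.58.1, R 4.3.3) with a trend was run on log2(FPKM + 1), tissue as the only term, two-sided, Benjamini-Hochberg over contigs with a mean and SD of at least 10 FPKM, threshold 0.05. The scripts were tested on simulated data. Alternatives were other pseudocounts, filters, scalings, priors, a replicate block, limma-voom and leaving out each library. Named contigs were those averaging 10 FPKM or more and, in each step, those with the most fragments or the highest mean. The report also gives values of other contigs with at least 20 fragments and of TR126234, TR138805, TR115106, TR109531, TR103505, TR132951, TR16494, TR11954 and TR17877|c0_g2_i1, chosen after their values were seen. Members and lists were chosen with earlier results of these data known.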

Additional observations from a re-analysis of the deposited data

How the results depend on the processing

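The 24 contigs called over the whole table became 3 with no filter, 9 with a mean of at least 1 FPKM, 0 with at least 20 fragments, 13 with an equal sum per library, 15 with quantile normalization, 0 with no trend in the prior and 115 with limma-voom. With filters chosen after seeing the data they became 1 with at least 20 fragments and hits to the 5 genera only, by limma or limma-voom, and 0 by limma-voom with at least 20 fragments. Leaving out 1 library gave 305 to 810 calls, with a prior of under 1 degree of freedom and the lone library assumed to vary like the other tissue, and 0 to 2 enzyme contigs called. The 0 enzyme contigs called became 1, cinnamate 4-hydroxylase, with a mean of at least 1 FPKM, with at least 20 fragments added to the filter, with the 5 genera only, with the robust prior and with limma-voom. Of the 14 contigs with at least 20 fragments, 0 were higher in petal and 4 in leaf without overlap. The petal count became 4 with at least 10 fragments (18.2%, background 23.5%) and 6 of the 57 contigs above 0 (background 12.3%), where the leaf count was 9 of 57 (15.8%, background 10.7%). Leaving out 1 library, chosen after seeing the data, gave 0 to 3 higher in petal (background 33.4% to 43.1%) and 5 to 7 higher in leaf (30.1% to 34.7%).

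Leaving out 1 library, the log2 difference of TR140222|c0_g2_i1 ranged from -0.43 to 2.04 and that of TR10968|c0_g1_i1 from -0.67 to 4.70, negative without petal replicate 2 and highest without petal replicate 1. Of 22 named contigs, 6 changed sign under some setting and 16 under none of those run. All of the 16 except cinnamate 4-hydroxylase, TR142|c0_g1_i1 and TR15315|c0_g1_i1 were at 0 in both libraries of a tissue. In most settings such a difference can shrink to 0 but cannot reverse, so the count of 16 does not measure stability. The median log2 difference of all contigs tested was 2.21 as reported, -2.72 with an equal sum per library, 1.85 with quantile normalization and 0.25 with an equal sum over hits to the 5 genera. The causes were not tested.

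The labels number the libraries 1 and 2 in each tissue, and the deviations of same-numbered libraries correlated at 0.041 over 2157 contigs. That value cannot tell whether same-numbered libraries shared a plant or a batch. A replicate block gave 51 calls in place of 24, with 0 enzyme contigs called. Of the 57 contigs above 0, 43 held under 20 fragments, where counting error is large, and low expression, short contigs and depth were not separated as causes.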
